A study of Homo sapiens with 6 samples.

Results

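The ERK feedback genes described here are 5 dual-specificity phosphatases (DUSP1, DUSP4, DUSP5, DUSP6 and DUSP7), the Sprouty genes SPRY2 and SPRY4, the Sprouty-related genes SPRED1 and SPRED2, and PHLDA1. They were taken by symbol from the deposited expression table, where each of the 10 has 1 row among 58735 gene rows. T24 is an established human bladder carcinoma line, long known as a source of an activated HRAS oncogene, and the labels give its genotype as WT. The 6 RNA-seq libraries come from this line in medium with 10% serum, 3 as control without added cytokine and 3 with TGF-β1 at 10 ng/ml, called TGF-b1 libraries here, all after 48 h and labelled day 2. Nothing in the labels ties a replicate to a culture of its own, so each p-value reflects the spread among these libraries, which can be technical.

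Growth factor receptors and RAS switch on a kinase chain that ends in the MAP kinases of the ERK type. Active ERK induces genes whose products damp the same chain, which makes their transcripts a common readout of ERK output. The dual-specificity phosphatases remove phosphate from the activation loop of MAP kinases, and Sprouty and SPRED proteins act upstream at the level of receptors, RAS and RAF. TGF-β1 acts mainly through SMAD transcription factors and can also engage MAP kinases.

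With TGF-b1, 2 of the 9 measurable ERK feedback genes fell and none rose. DUSP5, a nuclear phosphatase that binds ERK and is induced by it, fell to 0.455 of its control level, from 25.9 ± 1.44 to 11.8 ± 0.859 FPKM (SD, n = 3). PHLDA1, an ERK-induced protein with a pleckstrin homology-like domain, fell from 19.6 ± 1.14 to 12.4 ± 1.43 FPKM, a ratio of 0.633. FPKM are fragments scaled to gene length and library size. Levels of different genes can be set side by side only as far as the gene lengths used hold. In bulk RNA a lower share of cells holding a transcript and less of it per cell cannot be told apart. The threshold is an adjusted p of 0.05 from limma on log2(FPKM + 1), adjusted by Benjamini-Hochberg over the 11363 genes tested, of which 2.44% passed, 1.29% lower and 1.14% higher with TGF-b1. DUSP1, DUSP6, DUSP7, SPRY2, SPRY4, SPRED1 and SPRED2 did not pass, and DUSP4 was too low to be tested.

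**Figure D1:**
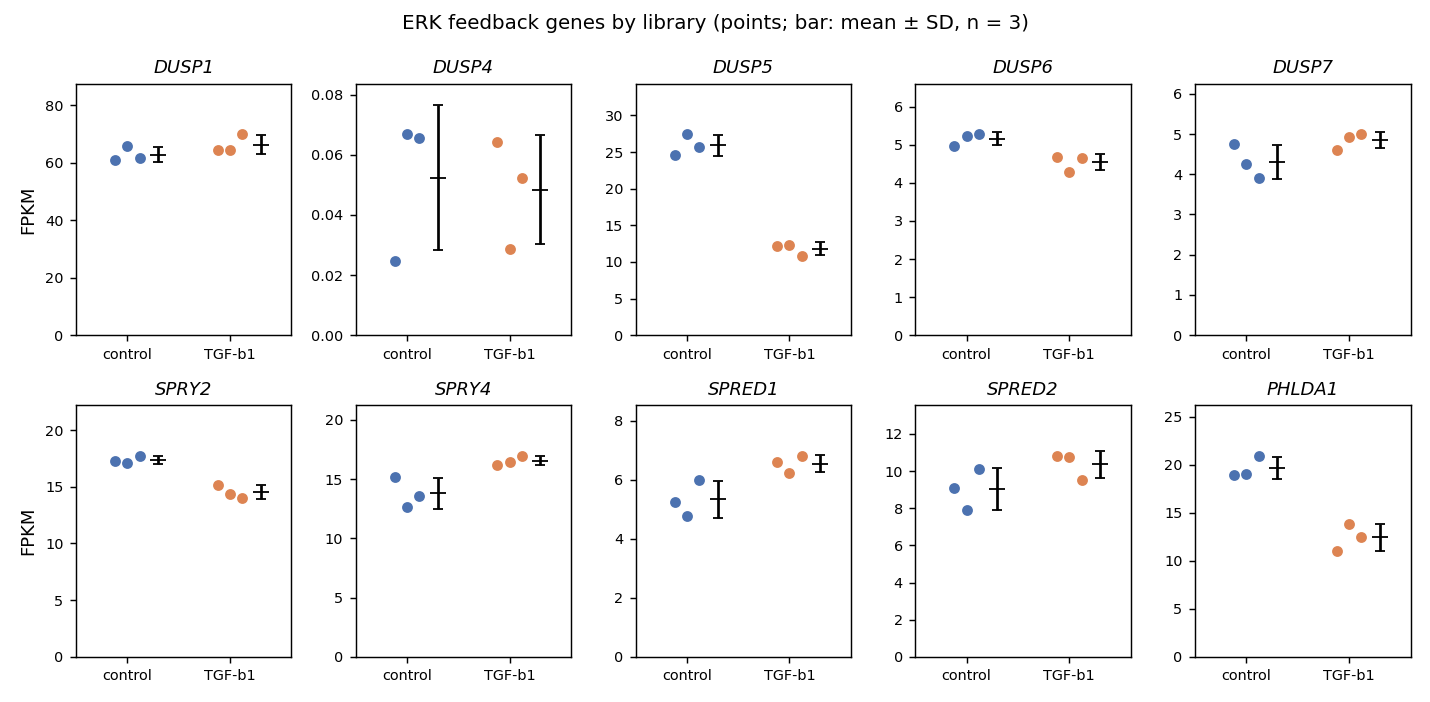
FPKM of the 10 ERK feedback genes in each library (points, 3 control and 3 TGF-b1), with the mean and SD of each group beside them; every vertical axis starts at 0 and has its own scale. The groups stand apart for DUSP5, DUSP6, SPRY2 and PHLDA1, lower with TGF-b1, and for SPRY4 and SPRED1, higher with TGF-b1. Of all 11363 genes tested, 12.5% stand apart on the lower side and 14.6% on the higher side.

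Short stretches of promoter DNA are shown for 4 of the genes. DUSP1 is the most abundant one, PHLDA1 fell, and SPRY2 and SPRY4 exchange places in the order of FPKM. RefSeq promoter windows on GRCh38.p14 were at hand for 8 of the 10 genes, not for DUSP4 and DUSP5. The 250 bases before each annotated start were searched on both strands for the AP-1 motif TGANTCA, the cyclic AMP response element core TGACG, the ETS core CCGGAA, the SMAD motif CAGAC, the TATA box TATAAA, the GC box GGGCGG and the serum response element, and capitals mark every match except those of the GC box. The whole windows of DUSP1 (chr5:172771196-172771445, minus strand) and of the first of 3 SPRY2 starts (chr13:80341127-80341376, minus strand) overlap no annotated exon of their genes. From PHLDA1 (chr12:76031848-76031877, minus strand) and SPRY4 (chr5:142324298-142324327, minus strand) only 30 bases around a match are given, since an annotated exon reaches into the window. All are written 5′ to 3′ on the gene's strand.
DUSP1: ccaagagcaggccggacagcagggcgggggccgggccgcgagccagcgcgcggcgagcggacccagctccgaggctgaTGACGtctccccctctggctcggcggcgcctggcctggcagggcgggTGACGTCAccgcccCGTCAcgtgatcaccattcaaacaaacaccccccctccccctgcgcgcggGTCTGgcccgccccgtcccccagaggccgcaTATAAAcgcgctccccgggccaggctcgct
SPRY2: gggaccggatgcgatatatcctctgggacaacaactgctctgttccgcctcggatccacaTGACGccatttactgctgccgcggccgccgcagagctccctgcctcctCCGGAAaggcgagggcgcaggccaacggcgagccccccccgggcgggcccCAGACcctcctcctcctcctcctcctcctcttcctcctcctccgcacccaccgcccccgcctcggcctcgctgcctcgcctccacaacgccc
SPRY4: tcttcggagccgTGACGgactgaattccct
PHLDA1: gaggagaggagtTTCCGGggctcgggtccg

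The DUSP1 window held 4 matches to TGACG, 2 of them the opposite strands of 1 palindrome, and a TATA box that ends 24 bases before the start. The second SPRED2 window also held a TATA box, which ends 25 bases before its start. A TGACG match occurs in 21.2% of the 35116 promoter windows in the RefSeq table and a TATA box in 10.7%. SPRY2 and PHLDA1 each held 1 ETS core, which 14.5% of windows hold, and SPRY2 and SPRY4 each held 1 TGACG. No window of the 8 genes held AP-1, present in 6.57% of all windows, or a serum response element, present in 1.16%. The 8 genes have 11 windows in all, 3 of them of SPRY2 and 2 of SPRED2. A SMAD match stood in those of DUSP1 and SPRED1, in all 3 of SPRY2 and in the first of SPRED2. A GC box stood in those of DUSP1, DUSP7, SPRY4, SPRED1 and PHLDA1 and in the first of SPRY2. Of all windows 38% hold a SMAD match and 42.6% a GC box, which are shares per window and not per gene. These are letter matches and say nothing of binding.

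The treatment and the line were checked first. All 6 genes of a list of TGF-β responders were higher with TGF-b1 and passed, where 1.14% of all genes tested passed as higher. Among them were PMEPA1, a restrainer of TGF-β signalling (log2 change 2.20), and the inhibitory SMAD7 (1.14). This list was chosen with earlier results of these data known, and with no filter on low values 2 of the 6 passed. Of 17 urothelial and epithelial markers 6 were at 1 FPKM or more in every library, including KRT18 and KRT8, while the urothelial marker UPK3A and the keratins KRT5, KRT14 and KRT19 were at 0 throughout and the adhesion gene CDH1 had 12 and 14 fragments in all. Their summed level was 477 to 645 FPKM in control and 414 to 445 in TGF-b1 libraries, and the part of this in the results below was not tested. Fibroblast, endothelial and leukocyte markers each summed to at most 0.808 FPKM per library, with the fibroblast genes PDGFRA, DPT and THY1 and the T cell gene CD3E at 0. Libraries held 20703945 to 23678772 fragments assigned to genes of known length, and control 3 differed from the other controls more than they did from each other. Without control 3 the share of genes called went from 2.44% to 28.9%, so the counts of adjusted calls below are also given without it.

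The 5 phosphatases differed widely in level. DUSP1, a nuclear phosphatase of ERK, JNK and p38 and an early gene of stress and growth factor responses, held the highest level. It stood at 60.9, 65.9 and 61.7 FPKM in control 1 to 3 and at 64.3, 64.6 and 70.0 FPKM in TGF-b1 1 to 3. The groups overlap, and the log2 change was 0.08 (95% interval -0.13 to 0.28, adjusted p = 0.62). The interval reaches no further down than -0.13, whereas the DUSP5 interval ends at -0.87.

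DUSP5 was next in the control libraries, at 24.6, 27.5 and 25.7 FPKM. With TGF-b1 it was at 12.2, 12.3 and 10.8 FPKM. No TGF-b1 library came near a control library, and the fragments behind these values were 1441, 1626 and 1553 against 685, 774 and 671. The log2 change of -1.07 (SE 0.09, adjusted p = 0.00026) was the 21st largest fall among the 11363 genes. Leaving out any 1 library gave changes between -1.11 and -1.02 with an adjusted p of at most 0.0028.

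DUSP6 and DUSP7 are cytoplasmic phosphatases selective for ERK. DUSP6, widely used as a marker of ERK activity, stood at 4.98, 5.23 and 5.29 FPKM in control and at 4.67, 4.29 and 4.66 FPKM in TGF-b1 libraries. Each TGF-b1 value lies under each control value, by a margin of less than 1 FPKM. The log2 change was -0.15 (95% interval -0.35 to 0.04, adjusted p = 0.28). DUSP7 stood at 4.75, 4.26 and 3.91 FPKM in control and at 4.61, 4.92 and 5.00 FPKM in TGF-b1 libraries. Its groups overlap, and the log2 change was 0.14 (95% interval -0.07 to 0.35, adjusted p = 0.35).

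DUSP4, a nuclear phosphatase of ERK and JNK, was nearly silent in this line. It had 4, 11 and 11 fragments in control and 10, 5 and 9 in TGF-b1 libraries, at most 0.067 FPKM. The group totals were 26 and 24 fragments, so that a small change would not be detectable at this depth.

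**Figure D2:**
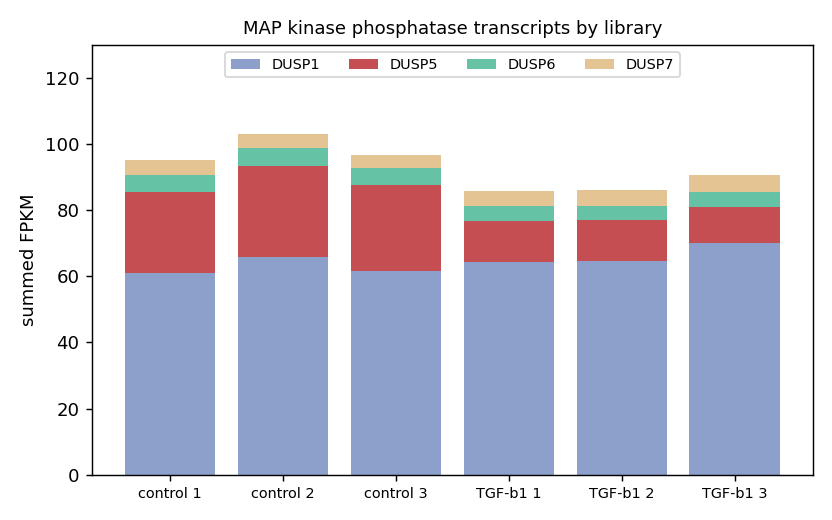
Summed FPKM of DUSP1, DUSP5, DUSP6 and DUSP7 in each of the 6 libraries, stacked by gene; DUSP4, at most 0.067 FPKM, is too low to draw. The DUSP5 segment is shorter in all 3 TGF-b1 libraries and the DUSP1 segment is not.

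The makeup of the phosphatase transcripts differed between the groups, with smaller DUSP5 and larger DUSP1 and DUSP7 shares in the TGF-b1 libraries. DUSP5 made up 25.8, 26.7 and 26.6% of the summed FPKM of the 5 phosphatases in control and 14.2, 14.3 and 11.9% in TGF-b1 libraries. DUSP1 made up 63.8 to 64.0% in control and 74.9 to 77.3% in TGF-b1 libraries. DUSP7 made up 4.05 to 4.98% in control and 5.37 to 5.71% in TGF-b1 libraries, and the DUSP6 shares of 5.08 to 5.47% and 4.98 to 5.43% overlap. These shares are parts of the same sum, so a smaller DUSP5 share makes the summed share of the others larger. The larger DUSP1 and DUSP7 shares therefore do not show a rise of these genes. In FPKM the groups overlap for both (limma adjusted p = 0.62 for DUSP1 and 0.35 for DUSP7). The sum itself was 98.3 ± 4.11 FPKM in control and 87.6 ± 2.60 FPKM in TGF-b1 libraries (n = 3), and DUSP5 alone was lower by more than the sum was. Within each library DUSP5 stood at 4.86 to 5.26 times DUSP6 in control and at 2.32 to 2.87 times with TGF-b1 (exact permutation p = 0.1, the smallest possible, adjusted p = 0.12).

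SPRY2 and SPRY4 are membrane-associated inhibitors of receptor tyrosine kinase signalling to RAS, and both are ERK-induced. SPRY2 stood at 17.2, 17.1 and 17.7 FPKM in control and at 15.2, 14.4 and 14.0 FPKM in TGF-b1 libraries. SPRY4 stood at 15.2, 12.6 and 13.5 FPKM in control and at 16.2, 16.5 and 17.0 FPKM in TGF-b1 libraries. For neither gene do the groups overlap, and they lie in opposite directions.

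Neither Sprouty passed the threshold over all genes. The log2 change was -0.24 for SPRY2 (95% interval -0.43 to -0.05, adjusted p = 0.13) and 0.25 for SPRY4 (95% interval 0.04 to 0.46, adjusted p = 0.15). SPRY4 overlaps the antisense gene SPRY4-AS1, at 1.22 FPKM in control and 0.9747 FPKM in TGF-b1 libraries. Also on the opposite strand lie RF02038, at 2.73 and 3.18 FPKM, and RF02039, at 3.51 and 3.16 FPKM. Without a stated strand setting, fragments of SPRY4 and of these genes cannot be told apart. The ratio of SPRY4 to SPRY2, which does not depend on how libraries are scaled, was 0.882, 0.740 and 0.763 in control and 1.07, 1.14 and 1.21 in TGF-b1 libraries. So in FPKM SPRY2 was the higher of the pair in every control library and SPRY4 in every TGF-b1 library. Which of the 2 is higher depends on the exon lengths used, 6565 bases for SPRY4 and 3038 for SPRY2. In fragments SPRY4 was the higher in control libraries too, with 2233, 1875 and 2055 against 1172, 1173 and 1246. The shift of the ratio between groups does not depend on these lengths. An exact two-sided permutation test of the log2 ratio gave p = 0.1, the smallest that 3 against 3 libraries allow (adjusted p = 0.12 over 6 ratios).

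**Figure D3:**
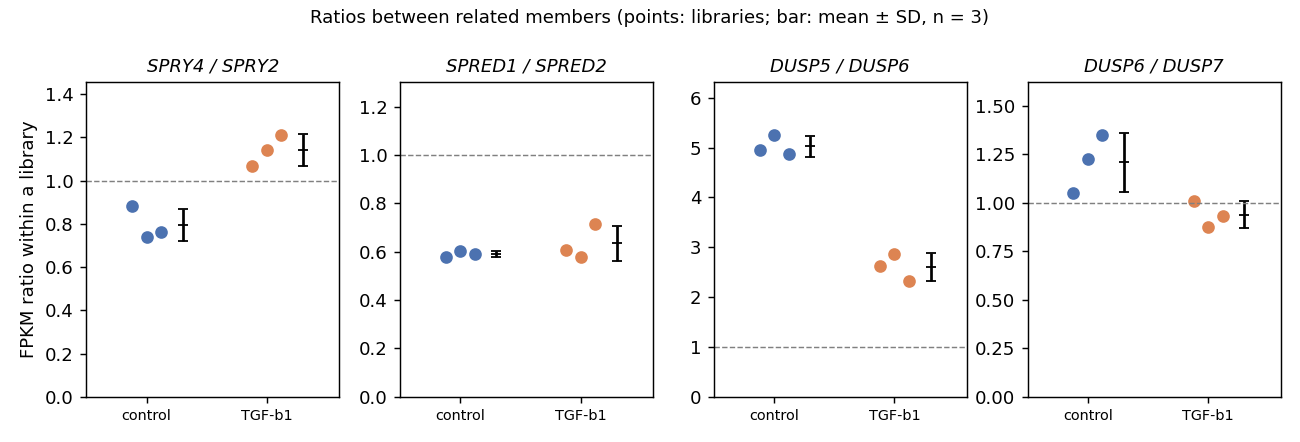
Ratio of FPKM between related genes within each library (points), with mean and SD per group. The dashed line marks equal FPKM, a point that depends on the exon lengths used. SPRY4 over SPRY2 lies under 1 in all 3 control and over 1 in all 3 TGF-b1 libraries, DUSP5 over DUSP6 is lower with TGF-b1, and SPRED1 over SPRED2 overlaps between groups.

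SPRED1 and SPRED2 bring the RAS inhibitor neurofibromin to the membrane. SPRED1 stood at 5.26, 4.76 and 5.99 FPKM in control and at 6.59, 6.22 and 6.82 FPKM in TGF-b1 libraries. All TGF-b1 values lie over the controls, with control 3 the nearest. The log2 change was 0.26 (95% interval 0.04 to 0.47, adjusted p = 0.15). SPRED1 has the lowest GC content of the 10 genes, 38.9% in its longest transcript, and with a trend of GC content and length removed from each library its log2 change was 0.09 (adjusted p = 0.44). SPRED2 stood at 9.08, 7.89 and 10.1 FPKM in control and at 10.8, 10.7 and 9.52 FPKM in TGF-b1 libraries, with overlapping groups (log2 change 0.18, 95% interval -0.05 to 0.42, adjusted p = 0.28). SPRED1 over SPRED2 gave a mean ratio of 0.592 ± 0.0119 in control against 0.635 ± 0.0720 in TGF-b1 libraries (exact permutation p = 0.4, n = 3, adjusted p = 0.4).

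PHLDA1 stood at 18.9, 19.1 and 20.9 FPKM in control and at 10.99, 13.8 and 12.5 FPKM in TGF-b1 libraries. The groups lie well apart, with 3417, 3479 and 3907 fragments against 1899, 2679 and 2391. The log2 change of -0.62 (SE 0.10, adjusted p = 0.0095) was the 184th largest fall. It passed whichever library was left out (changes of -0.70 to -0.54, adjusted p at most 0.034), and failed when all 28285 genes seen in any library were tested (adjusted p = 0.15). The spread of PHLDA1 between TGF-b1 libraries, 11.5% of the mean, was far over the 2.07% that counting alone gives.

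**Figure D4:**
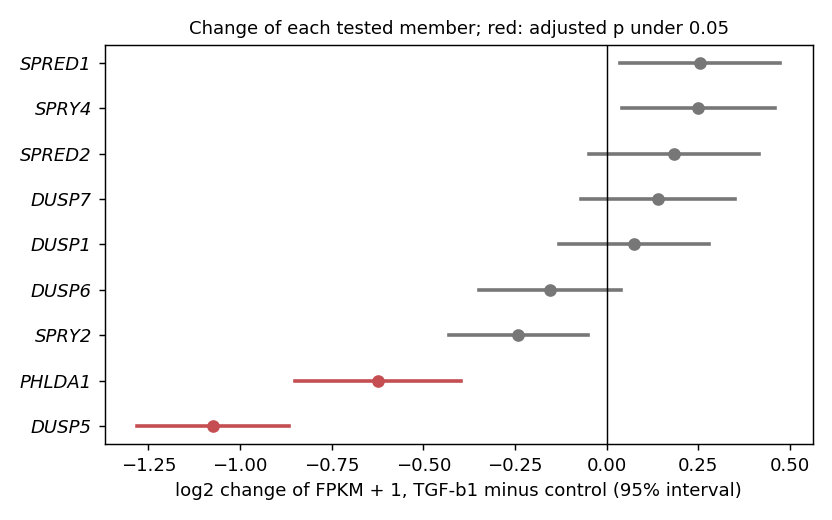
Log2 change of FPKM + 1 (TGF-b1 minus control) of the 9 tested genes with 95% intervals from limma over all genes; red marks an adjusted p under 0.05. The DUSP5 and PHLDA1 points are red and lie lowest, and the intervals of SPRED1, SPRY4 and SPRY2 leave 0 out without passing the adjusted threshold.

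Over the 9 tested genes, groups did not overlap for 4 lower and 2 higher ones, where 12.5% of all genes tested were lower and 14.6% higher in that sense, 27.1% in all. At an unadjusted p under 0.05 there were 3 lower and 2 higher, beside 13.9% and 11.2% of all genes, 25.1% in all. The median log2 change of the 9 was 0.08, and that of all genes 0.01. Without control 3, SPRY2 (adjusted p = 0.0497) and SPRED1 (adjusted p = 0.024) also passed, so that 3 were lower and 1 higher, against 16.5% and 12.4% of all genes in that setting. The lower ones there were DUSP5, PHLDA1 and SPRY2. DUSP5 and PHLDA1 were the 2 genes called, both lower, in each of 4 further fits. Voom on the recovered fragments called 9.33% of all genes, 3.51% higher and 5.83% lower. A fit with the replicate number as a block called 6.75%, 2.19% higher and 4.56% lower. Removing the GC and length trend gave 4.39%, 2.51% higher and 1.88% lower, and testing protein-coding genes only gave 8.42%, 2.95% higher and 5.47% lower.

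In the control libraries the order of levels was DUSP1, DUSP5, PHLDA1, SPRY2, SPRY4, SPRED2, SPRED1, DUSP6, DUSP7 and DUSP4, and among neighbours SPRED1 and DUSP6 alone overlapped. With TGF-b1 it was DUSP1, SPRY4, SPRY2, PHLDA1, DUSP5, SPRED2, SPRED1, DUSP7, DUSP6 and DUSP4. There PHLDA1 overlapped with DUSP5, DUSP5 with SPRED2, and DUSP7 with DUSP6. DUSP5 thus went from the 2nd place to the 5th, at about the level of PHLDA1 and SPRED2. Both orders are in FPKM and depend on the exon lengths used. In fragments PHLDA1, with 8069 exon bases, was above DUSP1 and DUSP5 in control libraries, at 10803 in all against 8646 and 4620.

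Across the 6 libraries DUSP5 ran with SPRY2 (Pearson r = 0.97), PHLDA1 (0.94) and DUSP6 (0.87) on the log2(FPKM + 1) scale, and against SPRY4 (-0.90) and SPRED1 (-0.86). SPRED1 and SPRED2 ran together (0.81). These are descriptions over libraries that include both groups and share their scaling. Among 6294 other protein-coding genes with a mean of at least 5 FPKM, those most like DUSP5 were SMIM20 (r = 0.99), KANK2 (0.99) and HPCAL1 (0.99), over the same 6 libraries. SMIM20 went from 8.81 ± 0.311 to 6.14 ± 0.0645 FPKM and KANK2 from 16.1 ± 0.248 to 14.1 ± 0.154 FPKM (n = 3). HPCAL1, a neuronal calcium sensor protein, went from 53.3 ± 5.95 to 22.5 ± 2.09 FPKM (n = 3). A high r thus did not mean a fall of equal size.

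The other genes of the families were lower in level or did not pass. Of 5 further MAP kinase phosphatases 4 were tested and 0 passed in the main limma test, by voom or without control 3, with 1 at an unadjusted p under 0.05. That one was DUSP8, a JNK and p38 phosphatase, at 2.80 ± 0.426 and 3.47 ± 0.171 FPKM (adjusted p = 0.19, against 0.014 once GC and length trends were taken out). DUSP10, of the same preference, stood at 11.8 ± 1.08 and 10.3 ± 0.190 FPKM (adjusted p = 0.26), DUSP16 at 4.65 and 4.14 FPKM (adjusted p = 0.39) and DUSP9 at 2.04 and 1.67 FPKM (adjusted p = 0.37). SPRY1, SPRY3 and SPRED3 were each under 1 FPKM on average and were not tested.

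Of 20 other genes known to be induced by ERK 16 were tested, and 4 fell, 0 rose and 12 did not pass. Over all genes tested 1.29% passed as lower and 1.14% as higher. Testing protein-coding genes only gave 6 lower and 0 higher, beside 5.47% and 2.95% of all genes in that setting. The median log2 change of the 16 was -0.28, beside 0.01 over all genes tested. AREG, an EGF receptor ligand, fell from 5.97 ± 1.05 to 2.58 ± 0.328 FPKM (log2 change -0.96, adjusted p = 0.0028). FOSL1, the AP-1 subunit FRA-1, fell from 120 ± 6.48 to 72.5 ± 2.69 FPKM (log2 change -0.72, adjusted p = 0.0030). The collagenase MMP1 (log2 change -0.53, adjusted p = 0.024) and the transcription factor MYC (log2 change -0.40, adjusted p = 0.049) also fell.

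The AREG and FOSL1 calls held whichever library was left out, but with no filter on low values none of the 16 passed (adjusted p = 0.11 for AREG and 0.061 for FOSL1). Those of MMP1 and MYC were lost without any library other than control 3 (adjusted p up to 0.12 and 0.18). CCND1, which encodes cyclin D1, stood at 125 ± 6.12 and 155 ± 4.04 FPKM, higher in every TGF-b1 library without passing (adjusted p = 0.10, 0.041 by voom). The PEA3-type ETS factors ETV4 and ETV5, also ERK-induced, stood at 35.6 and 31.8 FPKM (adjusted p = 0.42) and at 13.5 and 14.4 FPKM (adjusted p = 0.53). CCND1, ETV4 and ETV5 were chosen after their values were seen. Taking out GC and length trends gave 3 lower and 1 higher, the last being CCND1 (adjusted p = 0.027). By voom 7 of the 16 were lower and 1 higher, and leaving out control 3 gave 10 lower and 1 higher. Over all genes, voom called 5.83% lower and 3.51% higher, and the fit without control 3 called 16.5% and 12.4%. An unadjusted p under 0.05 was reached by 13.9% of all genes on the lower side and 11.2% on the higher side. The counts of the lists below are to be read beside these shares.

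**Figure D5:**
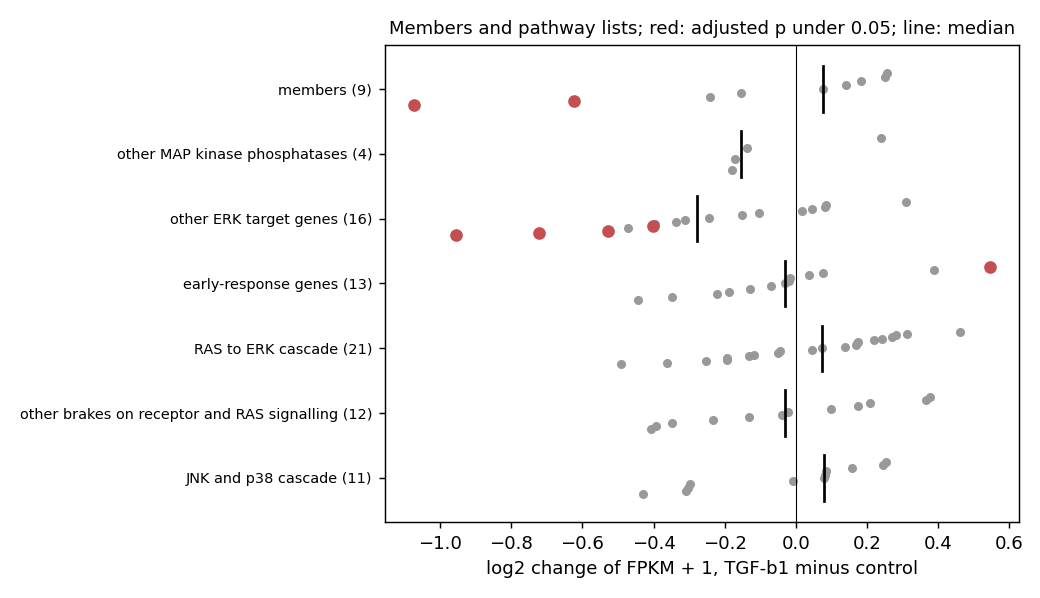
Log2 change of FPKM + 1 (TGF-b1 minus control) of each tested gene, with 1 row of points for the ERK feedback genes and for each of 6 related lists (number of tested genes in brackets); red marks an adjusted p under 0.05 and the vertical line the median. Red points are DUSP5 and PHLDA1, 4 other ERK targets on the lower side, and ATF3 on the higher side.

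Of 13 tested early-response genes, which rise within minutes of a stimulus, ATF3 rose from 3.56 ± 0.0250 to 5.68 ± 0.490 FPKM (adjusted p = 0.011), a call lost without control 1 or TGF-b1 3 (adjusted p up to 0.059) and with no filter (adjusted p = 0.13), and 0 fell. FOS stood at 1.36 ± 0.279 and 1.248 ± 0.197 FPKM (adjusted p = 0.73) and EGR1 at 14.2 and 12.4 FPKM (adjusted p = 0.23), both looked up after their values were seen. JUN stood at 76.3 ± 4.21 and 59.9 ± 7.69 FPKM (adjusted p = 0.11), JUNB at 24.2 and 31.9 FPKM (adjusted p = 0.13, against 0.0024 once GC and length trends were taken out) and ZFP36, an mRNA decay factor, at 10.0 and 7.06 FPKM (adjusted p = 0.16). By voom 1 was higher and 1 lower, and leaving out control 3 gave 2 lower and 1 higher.

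Of 21 tested genes of the kinase chain from RAS to ERK 0 passed in the main limma test, with 4 higher and 2 lower at an unadjusted p under 0.05, 1 higher and 2 lower by voom, and 8 higher and 4 lower without control 3. The replicate block gave 2 lower, MAPK3 (adjusted p = 0.030) and MAP2K2 (adjusted p = 0.048), and testing protein-coding genes only gave 1 higher and 1 lower. MAPK3, which encodes ERK1, stood at 28.6 ± 4.17 and 19.9 ± 1.58 FPKM (adjusted p = 0.055, against 0.042 once GC and length trends were taken out). RPS6KA3, an ERK-activated kinase, stood at 5.51 and 7.89 FPKM (adjusted p = 0.064), MAP2K2, which encodes MEK2, at 58.9 and 45.6 FPKM (adjusted p = 0.11) and the adaptor FRS2 at 2.42 and 3.23 FPKM (adjusted p = 0.13).

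A list of 12 tested genes held other brakes on the chain and proteins that bind brakes, and 0 passed in the main limma test. There were 2 higher and 3 lower at an unadjusted p under 0.05, 1 higher and 3 lower by voom and 4 and 4 without control 3. The replicate block gave 2 lower, the Sprouty-binding TESK1 (adjusted p = 0.040) and ERRFI1 (adjusted p = 0.049). Testing protein-coding genes only gave 2 lower, ERRFI1 (adjusted p = 0.041) and PEBP1 (adjusted p = 0.043), and not TESK1 (adjusted p = 0.055). ERRFI1, an EGF receptor inhibitor named after its values were seen, stood at 39.2 ± 2.80 and 30.6 ± 0.450 FPKM (adjusted p = 0.073, against 0.0040 once GC and length trends were taken out). NF1, which encodes the neurofibromin that SPRED proteins recruit, stood at 3.64 ± 1.11 and 4.92 ± 0.215 FPKM (adjusted p = 0.16), and CBL, a ubiquitin ligase that binds SPRY2, at 11.5 ± 2.21 and 15.0 ± 1.16 FPKM (adjusted p = 0.13). PEBP1, a RAF inhibitor, stood at 177 and 134 FPKM (adjusted p = 0.084) and TESK1, a kinase that binds Sprouty proteins, at 12.8 and 9.48 FPKM (adjusted p = 0.12). Of 11 tested genes of the JNK and p38 chains, substrates of DUSP1 among them, 0 passed in the main limma test, with 2 higher and 3 lower at an unadjusted p under 0.05, 1 lower by voom, 1 lower among protein-coding genes only, and 2 higher and 4 lower without control 3. The p38 gene MAPK12 stood at 4.69 and 3.21 FPKM (adjusted p = 0.075) and MAPK11 at 9.61 and 7.50 FPKM (adjusted p = 0.29), and the kinases MAP2K3 and MAP2K7 at 40.9 and 32.9 FPKM (adjusted p = 0.11) and 11.4 and 9.02 FPKM (adjusted p = 0.15).

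In GENCODE 29 on GRCh38, DUSP5 lies on chromosome 10 at 110497838 to 110511544, plus strand, and PHLDA1 on chromosome 12 at 76025447 to 76033932, minus strand. No other annotated gene overlaps DUSP5. PHLDA1 overlaps 2 antisense genes, both listed at 0 in every library. DUSP1 lies on chromosome 5 at 172768090 to 172771195, SPRY4 on the same chromosome at 142310427 to 142326455 and SPRY2 on chromosome 13 at 80335976 to 80340951, each on the minus strand.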

How the data were processed

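Per the file headers, the deposited values are FPKM, made by the authors, in 1 table of 6 library columns. Its first 11 rows are mapping totals and were left out. The submitters' processing notes name build hg38 and the tools HISAT2 2.0.5 (an aligner) and featureCounts 1.5.0-p3 (a read counter). Annotation release, strand setting and trimming were not given in the sources used here.

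Exon lengths of GENCODE 29 turned FPKM into fragments, 99.9992% of 126561 values above 0 lying within 0.05 of a whole number. The FPKM denominators followed median-of-ratios factors, so the values are already scaled between libraries.

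The treatment effect on log2(FPKM + 1) was fitted by limma 3.58.1 (R 4.3.3), with trend and robust estimation, for genes at 1 FPKM or more in at least 3 libraries. A fold on this scale understates the change of low genes. Within groups, chi-square per degree of freedom was 6.07 to 26.2, where 1 is sampling noise, so no library was a duplicate. Counting spreads cover counting error only.

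The genes and lists were chosen with earlier results of these data known. Named were the 10 genes, up to 4 genes per list (called ones first, then by size of change), response checks and the 3 genes most like the called gene with the largest fall; others are marked as chosen after their values were seen. The alternatives were a pseudocount of 0.1, other filters, other scalings, a plain limma fit with neither trend nor robust estimation, a replicate block, each library left out, protein-coding genes only, voom and removal of a GC and length trend.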

Additional observations from a re-analysis of the deposited data

How the results depend on the processing

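DUSP5 passed in all 17 alternatives (log2 change -1.14 to -0.92, adjusted p at most 0.026) and PHLDA1 in 16 (-0.72 to -0.54), failing with no filter. DUSP1, DUSP6, DUSP7, SPRY4 and SPRED2 passed in none, and none of the 9 tested ERK feedback genes changed sign in any alternative run. The count of ERK feedback genes past the threshold was 2, against 1 with no filter, and 2 to 4 on leaving out 1 library, 4 without control 3. The count over all genes was 277, against 15 with no filter, 500 where 5 FPKM was the minimum, 842 among protein-coding genes alone, 1054 by voom, 499 once GC and length trends were taken out, and 124 to 3280 on leaving out 1 library (3280 without control 3, 124 without control 1, 176 without control 2, 152 without TGF-b1 2 and 152 without TGF-b1 3). The share higher among calls was lower by the replicate block (249 higher, 518 lower) and higher with the trends taken out (285 higher, 214 lower) than in the reported fit (130 higher, 147 lower). No scaling tried moved the median of all genes by more than 0.04.

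With the replicate block, all genes gave 767 calls and the ERK feedback genes the same count of 2. The labels do not say whether same-numbered libraries share a batch. Deviations of same-numbered libraries correlated at 0.25, -0.07 and 0.17. For numbers 1 and 3 the same-numbered pair correlated best, and for number 2 it did not. Depth limits DUSP4, with 4 to 11 fragments a library.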
